A study of Homo sapiens with 6 samples.

Results

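The 9 genes described here encode the subunits of the replicative DNA polymerases epsilon (POLE, POLE2, POLE3 and POLE4) and delta (POLD1, POLD2, POLD3 and POLD4), together with CHRAC1, the other histone-fold partner of POLE3. They are 9 of the 50868 genes listed in each of 6 RNA-seq libraries, and all 9 were found by gene symbol. The group was selected because POLE4 had a very large fall in this same comparison, so the differences between the 2 groups of libraries are given for these genes as descriptions, without a test. The cells were labelled A549, a human lung adenocarcinoma line, and were compared after delivery of an siRNA against SF3B4 (3 libraries) or of a scramble siRNA, called NC in the labels and control here (3 libraries). An siRNA guides the cleavage of the transcript it matches, and SF3B4 encodes a subunit of SF3b, the splicing complex that contacts the branch point of introns. The sources used here do not give the siRNA sequence, dose or time, and the labels name no other difference in treatment between the groups.

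The genotype labels differ from the titles in part: all control libraries are called WT, and SF3B4 siRNA replicates 2 and 3 carry the names SF3B5 and SF3B6 there, although their titles and treatment name SF3B4. Control replicates 1 to 3 held SF3B4 at 88.6, 91.98 and 93.8 FPKM and SF3B4 siRNA replicates 1 to 3 at 22.03, 17.7 and 22.3 FPKM, where FPKM is the number of fragments scaled by transcript length and by library total. It was thus low in all 3 (limma adjusted p = 8.8e-05), and the smallest p an exact permutation test of 3 against 3 libraries allows is 0.1. SF3B5, another SF3b subunit gene, was also low in all 3, at 201, 189 and 207 FPKM against 393, 432 and 453 FPKM in control (limma adjusted p = 9.6e-05), and SF3B6, at 39.1, 43.3 and 42.2 against 48.7, 46.5 and 42.5 FPKM, did not pass (limma adjusted p = 0.18). Of the SF3B4 siRNA libraries, SF3B5 was lowest in replicate 2 and SF3B6 in replicate 1. The deposited tables are named after H1650, a different lung cancer line, and of 8 genes taken as typical of A549, 5 were below 1 FPKM in every library, so the cells are called libraries labelled A549. All 5 epithelial markers were at 1 FPKM or more throughout. Among 7 markers of immune, endothelial and fibroblast cells, 5 stayed below 1 FPKM and PTPRC, the pan-leukocyte marker, was listed at 0. Their summed level ran from 3.84 to 4.30 FPKM in control and from 7.11 to 8.94 FPKM in SF3B4 siRNA libraries, through CD14 and COL1A1, and its part in the results below was not tested. The implied depth was 17508535 to 18529671 fragments per library. The titles call the replicates biological without saying whether they were separate cultures. The p-values thus set group differences against the spread between these libraries, which may not be the spread between cultures.

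DNA polymerase epsilon extends the leading strand and polymerase delta the lagging strand of the replication fork. POLE and POLD1 are the catalytic subunits, POLE2 and POLD2 the second subunits that tie them to the rest of each complex, and POLD3 and POLD4 are accessory subunits of polymerase delta, POLD3 with a motif that binds the sliding clamp PCNA. POLE3 and POLE4 are small histone-fold proteins that pair with each other in polymerase epsilon and take part in handing parental histones to the new strand, whereas POLE3 paired with CHRAC1 belongs to the CHRAC chromatin remodelling complex.

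POLE4 (ENSG00000115350, GRCh38 chromosome 2, 74958492 to 74970128, plus strand) was the subunit gene with by far the largest difference. It stood at 32.8, 40.01 and 42.4 FPKM in control replicates 1 to 3 and at 6.75, 5.13 and 8.45 FPKM in SF3B4 siRNA replicates 1 to 3. Every SF3B4 siRNA library lay below every control library, and the mean went from 38.4 ± 5.00 to 6.78 ± 1.66 FPKM (SD, n = 3 each), or 17.6% of control. The log2 difference, on log2(FPKM + 0.1) as throughout, was -2.51 ± 0.19 (SE). At the implied depth these values rest on about 116 to 962 fragments per library. Of all 9685 genes with at least 1 FPKM in at least 3 libraries, 3 had a lower log2 difference. These were NOC2LP1 (-3.07), DNAJC25-GNG10 (-2.93) and ENSG00000254719 (-2.91), named after their values were seen; NOC2LP1 is named as a pseudogene, DNAJC25-GNG10 as a readthrough gene and ENSG00000254719 has no symbol. POLE4 thus moved from above 90.3% of these genes by mean level in control to above 59.7% of them. Fewer cells that express a gene and less RNA per cell cannot be told apart in bulk libraries, here and for every gene below.

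The 3′ UTR of POLE4 holds a repeated short sequence that other work on these same data had linked to lower levels, the 7-mer GCCTTCA. The search used the strand of the transcript, the 7-mers GCCTTCA and CCTTCAA, which overlap by 6 bases, and the principal transcript of each gene in GENCODE 29 (1248 bases and 4 exons for POLE4). GCCTTCA occurs 3 times in its 706 bases of 3′ UTR, all in exon 4, starting at bases 25, 38 and 116 after the stop codon. The first 2 copies are 6 bases apart and the last ends within 122 bases of the stop codon. The number of copies sets POLE4 apart from the other subunit genes, of which CHRAC1 and POLD3 hold 1 GCCTTCA each in the 3′ UTR. Both stretches are shown with the 7-mer in capitals, 5′ to 3′ on the plus strand.
POLE4 copies 1 and 2 (chr2:74969442-74969471): tgtgaGCCTTCAtctgaaGCCTTCAgttca
POLE4 copy 3 (chr2:74969527-74969556): cttcctgttctGCCTTCAcctatgccggga

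The partners of POLE4 differed far less. POLE3 (chromosome 9, 113407235 to 113410672, minus strand) stood at 31.0, 30.04 and 31.9 FPKM in control and at 26.5, 25.9 and 27.3 FPKM in SF3B4 siRNA libraries. The groups did not overlap, and the log2 difference was -0.22 ± 0.06 (SE). CHRAC1 (chromosome 8, 140511298 to 140517137, plus strand) was at 4.13, 3.603 and 4.52 FPKM in control and at 3.16, 3.08 and 2.09 FPKM in SF3B4 siRNA libraries, the last value being replicate 3. Its groups did not overlap either, with a log2 difference of -0.56 ± 0.17 (SE), which was -0.37 without SF3B4 siRNA replicate 3. CHRAC1 rested on about 97 to 204 fragments per library, fewer than POLE3 with about 1018 to 1268.

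The catalytic core of polymerase epsilon was lower too. POLE (chromosome 12, 132623753 to 132687365, minus strand), which carries the polymerase and the proofreading exonuclease, stood at 5.52, 6.10 and 5.47 FPKM in control and at 3.69, 3.54 and 4.05 FPKM in SF3B4 siRNA libraries. The lowest control library was above the highest SF3B4 siRNA library, and the log2 difference was -0.59 ± 0.10 (SE), 66.0% of the control mean. POLE2 (chromosome 14, 49643555 to 49688422, minus strand) was the lowest of the 9 genes, at 0.881, 1.05 and 0.931 FPKM in control and at 0.358, 0.415 and 0.473 FPKM in SF3B4 siRNA libraries. Its groups did not overlap, and its mean was 43.6% of control. POLE2 reached 1 FPKM in too few libraries to enter the fit; without the filter its log2 difference was -1.03 ± 0.14 (SE), from about 11 to 33 fragments per library.

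**Figure D1:**
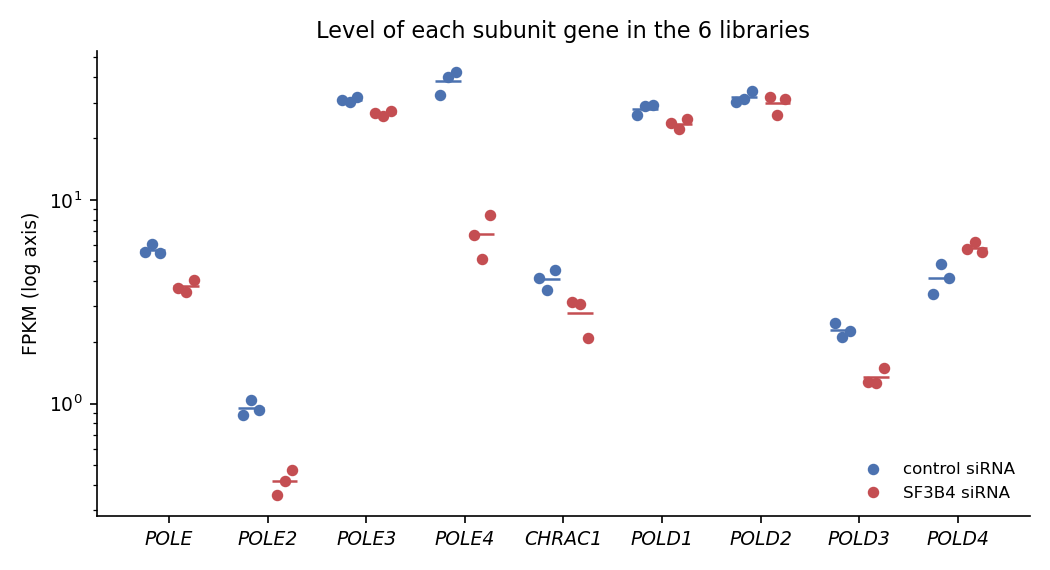
FPKM on a log axis for the 9 subunit genes, with 1 point per library (blue control, red SF3B4 siRNA, replicates 1 to 3 from left to right) and a bar at each group mean. The POLE4 groups lie farthest apart, at means of 38.4 and 6.78 FPKM, the POLD2 groups overlap, and POLD4 is the 1 gene that is higher after SF3B4 siRNA.

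In polymerase delta, the catalytic and second subunits stayed close to control. POLD1 (chromosome 19, 50384204 to 50418016, plus strand) stood at 26.1, 28.8 and 29.2 FPKM in control and at 23.7, 22.2 and 24.9 FPKM in SF3B4 siRNA libraries. These did not overlap and gave a log2 difference of -0.25 ± 0.08 (SE). POLD2 (chromosome 7, 44114681 to 44124358, minus strand) was at 30.2, 31.2 and 34.2 FPKM in control and at 31.9, 26.2 and 31.1 FPKM in SF3B4 siRNA libraries. It was the 1 gene of the 9 whose groups overlapped, with a log2 difference of -0.10 ± 0.09 (SE), and SF3B4 siRNA replicate 2 held most of that difference (-0.02 without it).

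The accessory subunits of polymerase delta went in opposite directions. POLD3 (chromosome 11, 74493851 to 74669117, plus strand) stood at 2.49, 2.13 and 2.26 FPKM in control and at 1.28, 1.26 and 1.50 FPKM in SF3B4 siRNA libraries. It was lower in all 3, with a log2 difference of -0.73 ± 0.12 (SE). POLD4 (chromosome 11, 67350777 to 67356972, minus strand), the smallest delta subunit, which is degraded as protein after DNA damage, stood at 3.44, 4.85 and 4.13 FPKM in control and at 5.73, 6.21 and 5.52 FPKM in SF3B4 siRNA libraries. All 3 SF3B4 siRNA libraries were above all 3 control libraries, with a log2 difference of 0.49 ± 0.13 (SE), from about 58 to 103 fragments per library. Its value is uncertain, since AP003419.1, a gene on the same strand with a mean of 1.69 FPKM, overlaps 21.3% of its exonic bases.

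Counted over the 9 genes, the SF3B4 siRNA libraries lay wholly below the control libraries in 7, wholly above in 1 and overlapped in 1. Of the 8 that entered the fit, 6 lay wholly below. The same holds for 25.7% of all tested genes in the lower direction and 23.8% in the higher one, and since this contrast chose the genes nothing is read from their count. Among the 3 SF3B4 siRNA libraries, replicate 2 was the lowest in 6 of the 9 genes, replicate 3 in 2 and replicate 1 in 1. Replicate 2 was the lowest in 38.6% of all tested genes.

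**Figure D2:**
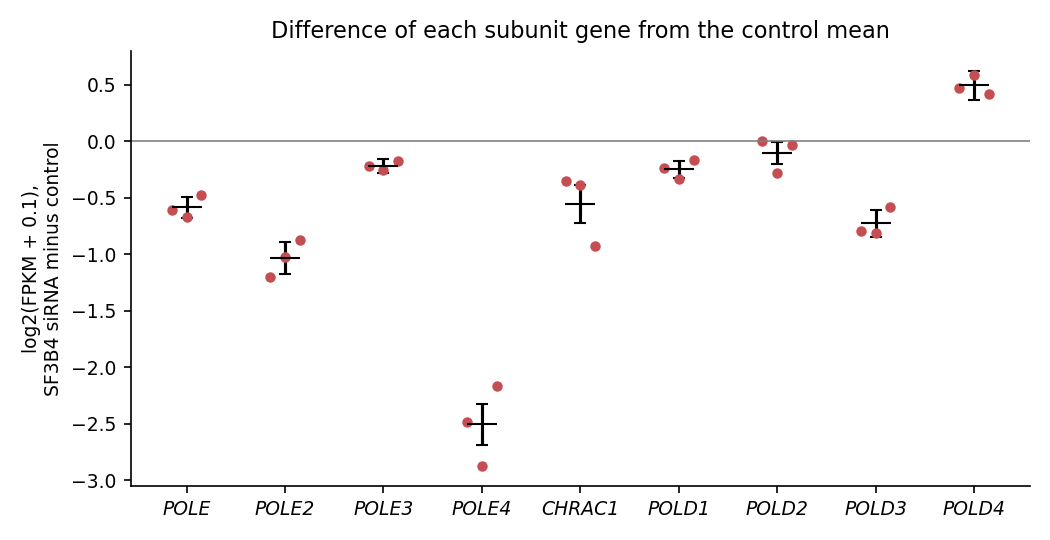
Difference of log2(FPKM + 0.1) from the control mean for the 9 genes. Red points are SF3B4 siRNA replicates 1 to 3 from left to right, the bar is their mean difference and the whiskers are its standard error; POLE4 lies at -2.51, the other genes between -1.03 and 0.49.

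The order of the 9 levels, which FPKM allows because it is per length, differed between the groups. POLE4 went from place 1 to place 4, so POLD2, POLE3 and POLD1 moved up and kept their order among themselves. POLE and POLD4 exchanged places. In control libraries POLE4 had the highest mean, followed by POLD2 at 31.9 ± 2.09, POLE3 at 31.0 ± 0.905 and POLD1 at 28.0 ± 1.67 FPKM, and the libraries of POLE4, POLD2 and POLE3 overlapped from one to the next. Then came POLE (5.70 ± 0.347 FPKM), POLD4 (4.14 ± 0.705 FPKM) and CHRAC1 (4.09 ± 0.461 FPKM), the last 2 overlapping. POLD3 (2.30 ± 0.184 FPKM) and POLE2 (0.952 ± 0.0847 FPKM) stood apart at the bottom.

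After SF3B4 siRNA the order was led by POLD2 at 29.7 ± 3.07 and POLE3 at 26.6 ± 0.721 FPKM, whose libraries overlapped, and by POLD1 at 23.6 ± 1.37 FPKM. POLE4 was now in the fourth place and overlapped POLD4 (5.82 ± 0.357 FPKM), which here stood above POLE instead of below it. POLE (3.76 ± 0.262), CHRAC1 (2.78 ± 0.596), POLD3 (1.35 ± 0.132) and POLE2 (0.415 ± 0.0577 FPKM) followed, each clear of the next.

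Ratios within a library, in which the library total cancels, give the balance between subunits. The FPKM ratio of POLE4 to POLE3 was 1.06, 1.33 and 1.33 in control and 0.254, 0.198 and 0.309 in SF3B4 siRNA libraries. The pair of histone-fold transcripts thus went from near equal levels to about 4 POLE3 for each POLE4. The ratio of POLE4 to CHRAC1, its alternative as the partner of POLE3, went from 9.48 ± 1.58 to 2.61 ± 1.26 (SD, n = 3 each). CHRAC1 to POLE3 went from 0.132 ± 0.0111 to 0.105 ± 0.0246, where SF3B4 siRNA replicates 1 and 2 (0.119 both) lay just under the lowest control library (0.120).

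POLE4 to the catalytic POLE went from 6.75 ± 0.917 to 1.79 ± 0.321. POLE to POLE2 went from 5.99 ± 0.239 to 9.14 ± 1.03, and POLD1 to POLD2 from 0.881 ± 0.0372 to 0.797 ± 0.0520. POLD4 to POLD3 went from 1.83 ± 0.449 to 4.36 ± 0.628, since its members moved in opposite directions. Between the catalytic subunits, POLD1 to POLE went from 4.93 ± 0.352 to 6.28 ± 0.131. In none of these ratios did the groups overlap, and they derive from the differences that chose the genes.

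**Figure D3:**
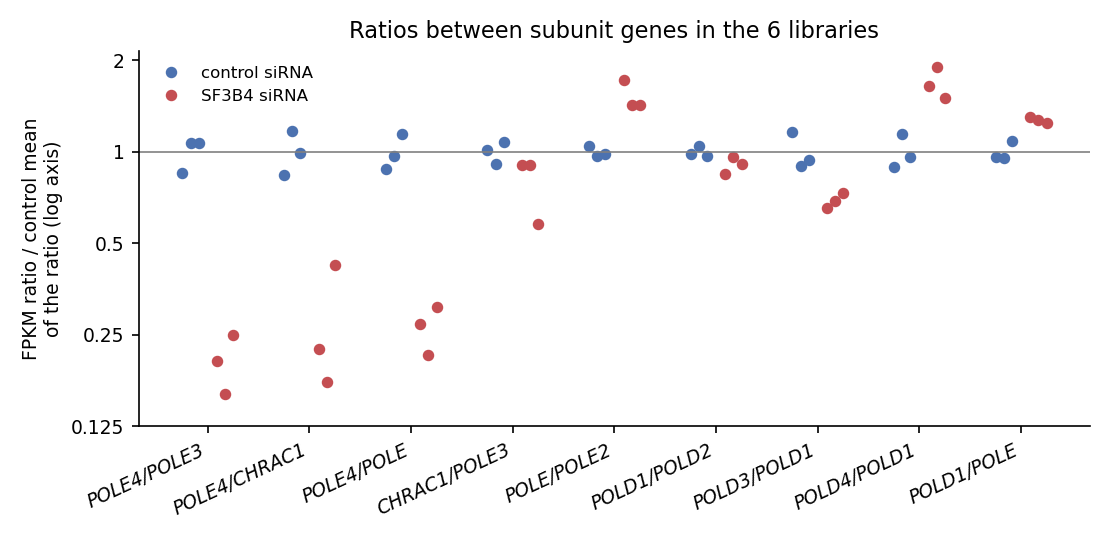
FPKM ratios between subunit genes in each library, divided by the control mean of that ratio, on a log axis; blue points are control and red points SF3B4 siRNA replicates 1 to 3 from left to right. The 3 ratios with POLE4 on top lie lowest as means after SF3B4 siRNA, and POLD4/POLD1 lies above its control level (0.147 to 0.248 as means).

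The genes whose pattern over the 6 libraries was nearest to that of POLE4 were SF3B4, LSM4 and CAP1. Nearness was the Euclidean distance between values of log2(FPKM + 0.1) centred on the control mean, among 4747 genes with a mean of at least 5 FPKM. SF3B4, the gene the siRNA targets, was at a distance of 0.714. LSM4, which encodes a protein of the ring that binds U6 small nuclear RNA, was at 0.986 and stood at 59.7, 67.4 and 74.9 FPKM in control and 18.1, 14.2 and 20.3 FPKM in SF3B4 siRNA libraries. CAP1, an actin regulator, was at 1.02 and stood at 34.4, 28.2 and 29.3 FPKM in control and 8.56, 5.73 and 8.74 FPKM in SF3B4 siRNA libraries. Its values are uncertain, since PPT1 on the opposite strand overlaps 31.2% of its exonic bases. In POLE4 and in all 3 of these genes, SF3B4 siRNA replicate 2 was the lowest library and replicate 3 the highest of its group, an order that choosing the genes by their values in each library favours. The 3′ UTR of CAP1 holds 1 GCCTTCA, that of LSM4 holds GCCTTCA and CCTTCAA overlapping, and that of SF3B4 holds neither.

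The other proteins of the replication fork were read from 4 lists of 44 genes that work beside these polymerases, of which 37 were tested. In limma, 26 of the 37 were lower after SF3B4 siRNA and 0 higher at an adjusted p under 0.05 (Benjamini-Hochberg over all genes), 70.3% against 18.1% of all tested genes that were lower and 16% that were higher. Over all genes the balance turned with the scaling, with 1803 higher and 1579 lower when centred on the median, while 25 fork partners were lower there. Their median log2 difference was -0.53, against 0.00 over all tested genes. Groups did not overlap in the lower direction in 28 of them. At an unadjusted p under 0.05 in limma, 29 were lower and 2, RPA3 and POLDIP2, higher. RPA3, a subunit of the single-strand binding protein RPA, passed in the higher direction when the libraries were centred on their medians (log2 0.24, adjusted p = 0.036 in limma) and without control replicate 1 (log2 0.25, adjusted p = 0.048), beside 0.20 (adjusted p = 0.083) with all libraries. The lists were chosen with earlier results of these data known, so these counts are descriptions.

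Polymerase alpha-primase, which starts each new strand with a short primer, had 3 of its 4 genes tested and all 3 fell, with a median of -0.86. The small primase subunit PRIM1 fell from 1.92 ± 0.422 to 0.704 ± 0.148 FPKM (log2 -1.32, limma adjusted p = 0.0027). The large primase subunit PRIM2 fell from 3.22 ± 0.181 to 1.73 ± 0.222 FPKM (log2 -0.86, limma adjusted p = 0.0017). POLA2 fell from 8.56 ± 1.11 to 5.65 ± 0.661 FPKM (log2 -0.59, limma adjusted p = 0.010), and the catalytic POLA1 was below the level tested, at 0.816 and 0.534 FPKM. All 3 priming genes tested thus had larger log2 differences than POLD1 and POLD2.

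The sliding clamp and its loaders, which hold polymerases delta and epsilon on DNA, had 10 of 11 genes tested, of which 8 fell, with a median of -0.55. The clamp loader subunit RFC3 fell from 2.40 ± 0.694 to 0.988 ± 0.257 FPKM (log2 -1.19, limma adjusted p = 0.0087), RFC4 by a log2 of -0.81 (adjusted p = 0.0040) and RFC2 by a log2 of -0.70 (adjusted p = 0.0048). DSCC1, a subunit of the alternative loader that binds polymerase epsilon, fell from 1.93 ± 0.415 to 0.921 ± 0.160 FPKM (log2 -0.98, limma adjusted p = 0.0063). CHTF8 and PCLAF did not pass, at log2 -0.09 and -0.33, and both share exonic bases with another gene (HAS3 over 10.8% of CHTF8, AC087632.1 over 28.8% of PCLAF).

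Lagging-strand maturation factors and cofactors of polymerase delta had 10 of 12 genes tested, of which 5 fell and 5 did not pass, with a median of -0.27. The flap endonuclease FEN1, which trims the fragments polymerase delta makes, fell from 38.4 ± 2.30 to 20.7 ± 2.12 FPKM (log2 -0.89, limma adjusted p = 0.00049). RPA1 fell by a log2 of -0.55 (adjusted p = 0.0046), and the ribonuclease H2 subunits RNASEH2C and RNASEH2A by log2 differences of -0.50 (adjusted p = 0.0022) and -0.40 (adjusted p = 0.0077). The value of RNASEH2C is uncertain, since KAT5 on the opposite strand overlaps 28.2% of its exonic bases. The polymerase delta interacting genes POLDIP2 (109 ± 4.48 and 120 ± 3.35 FPKM) and POLDIP3 (15.2 ± 5.39 and 16.2 ± 5.59 FPKM) did not pass in limma. POLDIP3 was low in replicate 3 of both groups, at 8.95 and 9.88 FPKM.

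The CMG helicase, to which polymerase epsilon is anchored, and its scaffold had 14 of 17 genes tested, of which 10 fell, with a median of -0.55. GINS1, in the GINS complex that contacts POLE2, fell from 10.9 ± 1.52 to 4.45 ± 0.663 FPKM (log2 -1.28, limma adjusted p = 0.00067). The helicase subunit MCM4 fell by a log2 of -0.87 (adjusted p = 0.0031), the activation factor MCM10 by -0.84 (adjusted p = 0.0057) and the fork protection gene TIMELESS by -0.83 (adjusted p = 0.0026). MCM3, CDC45, GINS2 and TIPIN did not pass.

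Of 15 other DNA polymerase genes, which repair DNA, bypass lesions or copy mitochondrial DNA, 5 were tested and 3 fell, with a median of -0.32. The share that fell was 60%, against 18.1% of all tested genes. The translesion polymerase POLH fell from 3.82 ± 0.255 to 2.54 ± 0.155 FPKM (log2 -0.57, limma adjusted p = 0.0043), the mitochondrial polymerase POLG from 8.55 ± 0.300 to 6.23 ± 0.522 FPKM (log2 -0.45, adjusted p = 0.0073) and MAD2L2, a subunit of polymerase zeta, from 17.6 ± 0.448 to 14.1 ± 0.768 FPKM (log2 -0.32, adjusted p = 0.013). The MAD2L2 call was lost without SF3B4 siRNA replicate 1 (adjusted p = 0.053, against 0.010 to 0.081 over its alternatives). POLL and POLM, which act in end joining, did not pass. The 3 that fell lay between POLD1 and POLD3 in log2 difference.

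The histone side of POLE3 and POLE4 was covered by 2 further lists. Of 17 genes for other histone-fold proteins and ISWI remodellers, 13 were tested, 3 fell and 10 did not pass, 23.1% against 18.1% of all tested genes, with a median of -0.19. SMARCA5, the motor of CHRAC, fell from 2.91 ± 0.357 to 2.15 ± 0.144 FPKM (log2 -0.42, limma adjusted p = 0.031), NFYB from 1.78 ± 0.141 to 1.21 ± 0.0219 FPKM (log2 -0.51, adjusted p = 0.012) and NFYC from 3.31 ± 0.354 to 2.51 ± 0.272 FPKM (log2 -0.38, adjusted p = 0.046). The NFYC call was lost without control replicate 1 (adjusted p = 0.091) or 3 (0.14) and without SF3B4 siRNA replicate 1 (0.14) or 2 (0.11), and that of SMARCA5 without control replicate 1 (adjusted p = 0.061) or 2 (0.054) and without SF3B4 siRNA replicate 1 (0.094) or 2 (0.081). Both calls were also lost with the replicate block (adjusted p = 0.059 for NFYC, 0.074 for SMARCA5) and without the filter (0.11 and 0.074), and that of NFYC after rescaling to TPM (0.062), quantile normalization (0.066) and centring on the median (0.058). Over all alternatives the limma adjusted p was 0.041 to 0.14 for NFYC and 0.027 to 0.15 for SMARCA5.

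Of 11 genes for histone chaperones, 10 were tested and 5 fell, 50% against 18.1% of all tested genes, with a median of -0.24. ASF1B fell from 45.1 ± 2.27 to 21.3 ± 2.27 FPKM (log2 -1.09, limma adjusted p = 0.00025). The CAF-1 subunits CHAF1B and CHAF1A fell by log2 differences of -0.81 (adjusted p = 0.0035) and -0.65 (adjusted p = 0.0069), and TONSL by -0.55 (adjusted p = 0.0035). ASF1A, NASP, SUPT16H, RBBP4 and HIRA did not pass, and C22orf39 overlaps 66.5% of the exonic bases of HIRA.

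**Figure D4:**
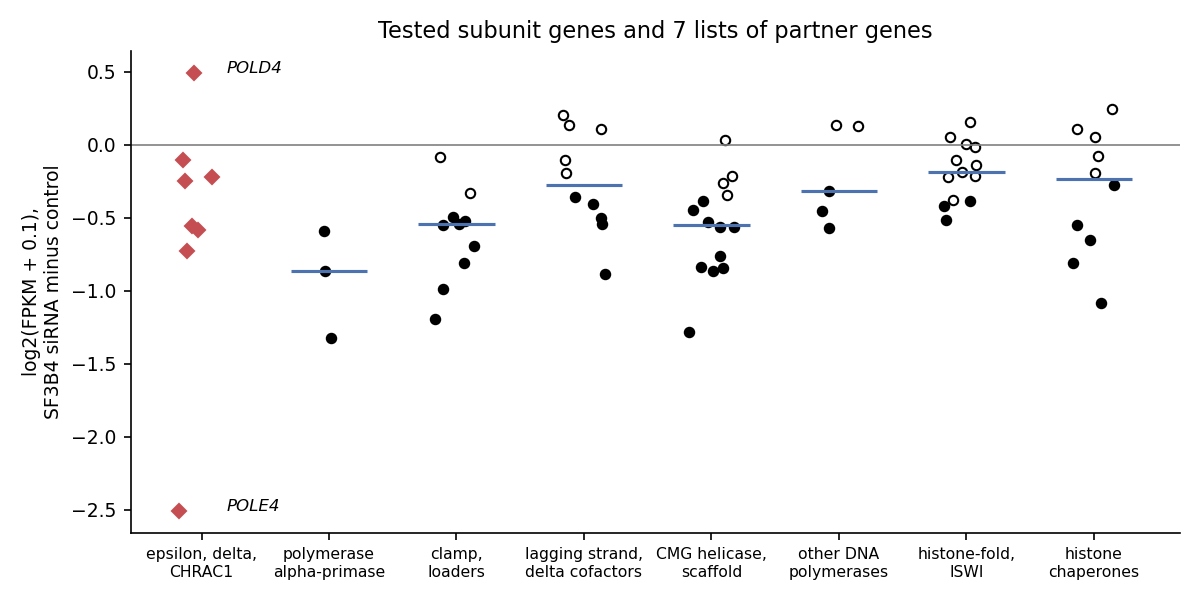
Log2 difference of each tested gene: red diamonds are the 8 tested subunit genes, circles are the genes of the 7 lists, filled where lower at an adjusted p under 0.05 in limma and open where not passed, and blue bars are list medians. POLE4 at -2.51 lies below every gene of the lists, of which the lowest is PRIM1 at -1.32.

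The 7-mers were present in the 3′ UTRs of 3 of the 9 subunit genes and absent from those of 6. Over all 8341 tested genes with a 3′ UTR, 17.3% held either 7-mer there. Besides POLE4, CHRAC1 has 1 GCCTTCA in exon 3, and POLD3 has 1 GCCTTCA and 1 CCTTCAA, 2111 and 1172 bases after the stop codon in exon 12. The POLD3 stretches are shown for comparison with those of POLE4, on the plus strand with the 7-mer in capitals.
POLD3 GCCTTCA (chr11:74642866-74642895): agttatttgctGCCTTCAtcgtttttttca
POLD3 CCTTCAA (chr11:74641927-74641956): tacaatgataaCCTTCAAgtgacttccatt
POLE2 has both 7-mers overlapping, but in the coding part of exon 1, shown here on the minus strand.
POLE2 coding (chr14:49688149-49688178): gggcgctctccGCCTTCAAgttgcggggct

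POLE, whose 3′ UTR of 935 bases holds no 7-mer, has 1 GCCTTCA and 1 CCTTCAA in its coding sequence (exons 47 and 27). POLE3, POLD1, POLD2 and POLD4 hold no copy of either anywhere in the transcript searched. Their log2 differences were -0.22, -0.25, -0.10 and 0.49, each nearer to 0 than those of the other 5 genes. By the 3′ UTR alone the genes did not separate this way. POLE2 (-1.03) and POLE (-0.59), with no copy there, were lower than CHRAC1 (-0.56) with 1. POLE and CHRAC1 changed order under some alternatives, such as leaving out control replicate 2 (-0.54 and -0.64). POLE2 rests on about 11 to 33 fragments per library. Both splits are descriptions over few genes, and the one over the whole transcript was seen after the values. Its separation by distance from 0 was lost under some alternatives. Examples are quantile normalization (POLD4 0.54, CHRAC1 -0.51) and leaving out SF3B4 siRNA replicate 3 (POLD4 0.53, CHRAC1 -0.37). Among the fork partners, 2 of 37 searched had a site in the 3′ UTR, PRIM1 and RPA1, and both fell. Of the 35 without a site, 24 fell. Over all 8341 genes searched, 15.2% of those with neither 7-mer were lower at an adjusted p under 0.05 in limma. With a site it was 21.5% (CCTTCAA), 40.6% (GCCTTCA) or 51% (both overlapping), and nothing is read from 2 genes. The median 3′ UTR was 758 bases with neither 7-mer, and 2211, 2300 and 2377 bases in the 3 classes with a site, in that order. The part of length in these shares was not tested.

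POLE4 was among the few genes with several copies of GCCTTCA, in a short 3′ UTR. Over 8341 tested genes with a 3′ UTR, 88.5% had no copy, 10% had 1, 1.2% had 2 and 22 genes (0.264%) had 3 or more. The medians of the log2 difference were 0.02, -0.26, -0.39 and -0.42, and the median 3′ UTR lengths were 821, 2142, 3383 and 4790.5 bases, so copy number and length cannot be told apart in these medians. POLE4 had 4.25 copies per 1000 bases, the most of the 22, and the lowest log2 difference of them. Of all 957 genes with a copy, 17 had more copies per 1000 bases than POLE4, 15 of them with a single copy. None of the 17 had a 3′ UTR longer than 447 bases, and their median log2 difference was -0.61. Among the 22, SNF8, with the next highest density at 2.59, had a log2 difference of 0.22, and B4GALT5, with the next lowest log2 difference (-1.88), had 0.891 copies per 1000 bases. GCCTTCA was picked out by earlier work on these same libraries, so the medians are no separate evidence. POLE4 was chosen for its fall, so its place as the lowest of the 22 is no evidence for a link with copies or density either.

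**Figure D5:**
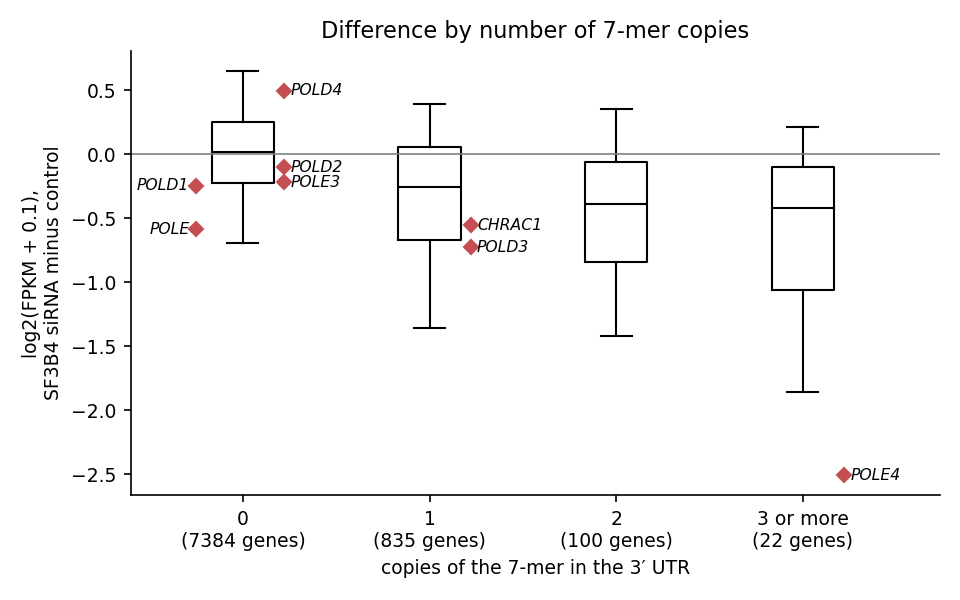
Log2 difference by number of GCCTTCA copies in the 3′ UTR for 8341 tested genes. Boxes span the quartiles with the median as a line, and whiskers reach the 5th and 95th percentiles. Red diamonds beside the boxes are the tested subunit genes. POLE4, which was chosen for its fall, lies below the lower whisker (-1.86) of the class it is part of.

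Promoters were read from RefSeq (GRCh38.p14) as the 250 bases before and 50 bases after each start, and 7 of the 9 genes were matched; CHRAC1 and POLD3 were not. Matches on either strand were sought for GCGGGAA (E2F, the factor family of S-phase genes), TTTGAA (the cell cycle homology region), CCAAT (NF-Y) and GGGCGG (SP1). GCGGGAA, held by 6.55% of all 35116 promoters and 9.96% of those of tested genes, was found in POLE4, 31 bases before the start, and in 1 of the POLE3 windows. It is shown in capitals for POLE4, on the plus strand.
POLE4 before the RefSeq start (chr2:74958601-74958630): ctccagcccgcGCGGGAAagggcctgcgcc
These letters lie inside the first exon of the GENCODE gene, whose start is upstream of that of RefSeq. CCAAT (34.6% of all promoters and of those of tested genes) was matched in POLE, POLE4, POLD2 and POLD4, TTTGAA (15.2% and 8.81%) in POLE3, and GGGCGG (45% and 70.2%) in all 7, some matches of POLD4 overlapping each other. POLD4, which was higher, and POLE4, which was lower, thus share CCAAT and GGGCGG, and a match is a string of letters, not a bound site.

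The neighbours of POLE4 on chromosome 2 showed no difference of that size. HK2, the glycolytic hexokinase gene 65133 bases upstream, stood at 15.3 ± 1.86 FPKM in control and 13.7 ± 1.90 FPKM in SF3B4 siRNA libraries, and TACR1 on the other side was listed at 0 in all 6. The nearest neighbour of POLE, the peroxisomal membrane protein gene PXMP2, starts 241 bases away on the opposite strand and stood at 19.2 ± 1.07 and 13.9 ± 0.579 FPKM, a log2 difference of -0.46 beside -0.59 for POLE. LIPT2, 118 bases from POLD3, stood at 1.54 ± 0.325 and 1.93 ± 0.388 FPKM (log2 0.31), opposite in sign to POLD3 (-0.73). The LIPT2 groups overlapped, at 1.24 to 1.88 FPKM in control and 1.56 to 2.34 FPKM in SF3B4 siRNA libraries. The neighbours of CHRAC1, TRAPPC9 and AGO2, both lay at a log2 difference of -0.37. The processed copies named after subunit genes were nearly silent, POLE4P1 at 0 in all libraries and POLD2P1 at no more than 0.222 FPKM.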

How the data were processed

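The values analysed are the FPKM the authors deposited for 50868 Ensembl identifiers in 6 libraries. The submitters' processing notes name HISAT2 2.0.4, StringTie 1.3.0 and GRCh38, without roles, and the sources used here give neither annotation nor strand setting. Single-exon genes moved in steps of 1 fragment (99.1% to 99.5% of low values within 0.02 of a whole number), which gave the implied depth; fragment numbers per gene assume the GENCODE 29 transcript length. Symbols were matched for 49659 identifiers, and positions and 3′ UTRs came from GENCODE 29, which may differ from the annotation behind the values.

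The 9685 genes at 1 FPKM or more in 3 or more libraries were fitted with limma 3.58.1 in R 4.3.3 (trend and robust, two-sided) on log2(FPKM + 0.1), which understates changes of low genes, with Benjamini-Hochberg adjustment and a threshold of 0.05. The fit was tested on simulated data. No count test was used, since FPKM are normalized values. Groups follow the titles. The subunit genes and the 7 lists were chosen with earlier results of these data known. Named were all 9 subunit genes, up to 4 genes per list with the largest change past the threshold, the 3 patterns nearest to POLE4, neighbours and pseudogenes; list genes that did not pass were named where the text needed them. The alternatives were other pseudocounts, filters and scalings, no trend, a replicate block, a minimum fold change and leaving out libraries.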

Additional observations from a re-analysis of the deposited data

How the results depend on the processing

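The POLE4 log2 difference kept its sign under each alternative run, from -2.68 to -2.32, both of these bounds with 1 library left out. POLE and POLD3 moved to -0.49 each with a pseudocount of 1, and no other tested subunit gene moved by more than the spread between replicates. With a mean FPKM of at least 5, 1027 genes were higher, 940 lower and 15 of the 23 fork partners still tested were lower; fewer genes are tested there. When the test required a fold change above 1.2, the numbers were 420, 693 and 12. More genes were higher than lower after rescaling to TPM (1641 and 1629) and quantile normalization (1738 and 1636), where 25 and 24 fork partners were lower. Leaving out the 2 SF3B4 siRNA libraries whose genotype labels name other genes, chosen after the data were seen, gave 335 higher, 700 lower and 11 fork partners lower, with 1 library left in that group that is assumed to vary like the controls. Leaving out each library in turn gave 1094 to 1492 genes higher, 1331 to 1604 lower, 22 to 26 fork partners lower and 0 to 1 higher, and centring on the median gave 1 fork partner higher (RPA3 in both cases); the cause was not tested. Of the 25 named list genes, 10 were called in every alternative, 15 lost the call in at least 1, and 0 changed sign. Deviations from the group means correlated at -0.08, 0.02 and -0.12 between same-numbered libraries, so they gave no sign of pairing by replicate number. With 3 libraries per group they cannot exclude it. With the replicate block, 1290 genes were higher and 1537 lower, 25 fork partners lower, and the POLE4 difference stayed at -2.51. Depth limits POLE2, POLD4 and POLD3 most, and only 3 libraries per group bound every standard error.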
